A study of Mus musculus with 2 samples.

Results

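The genes of cholesterol synthesis and of its control by SREBP2 were described as a set of 31, picked by symbol out of the 55357 genes in the deposited count matrix. Of them, 20 encode enzymes on the route from acetyl-CoA to cholesterol, 6 belong to the SREBP2 control circuit and 5 carry or store cholesterol. The cells came from RENCA tumours, a kidney cancer line of BALB/c mice that was grown in the kidney of such mice, and were profiled by droplet single-cell RNA-seq, in which each RNA molecule is counted by a unique molecular identifier (UMI). One library carries the genotype label SMYD3 knockdown and the other the label WT, the control graft. SMYD3 is a lysine methyltransferase, and by the design text it was knocked down in the grafted tumour cells, so the mouse's own leukocytes in both libraries are of the BALB/c host. The design text says that CD45-positive leukocytes were sorted, while the cell type label reads epithelial. The number of mice per library, their age and the knockdown reagent are not given in the sources used here.

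Cells build cholesterol from acetyl-CoA through mevalonate, farnesyl diphosphate, squalene and lanosterol. When sterols in the endoplasmic reticulum run low, Scap escorts SREBP2, the product of Srebf2, to the Golgi apparatus, where the proteases encoded by Mbtps1 and Mbtps2 free its active part, which raises transcription of most of these enzymes; Insig1 and Insig2 hold Scap back when sterols are plentiful. Macrophages also take up cholesterol with engulfed cells and lipoproteins, export it from lysosomes through Npc2 and Npc1, and store it as esters made by Soat1.

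After filtering, 8784 cells of 10186 barcodes remained under the knockdown label and 8079 of 9265 under the WT label, from totals of 95803321 and 91523767 UMIs. In every pair of values below, the knockdown label comes first. There is 1 library per label and so no replicate and no test. Intervals of levels, ratios and shares are exact 95% intervals that cover counting error only. The interval of a median difference is instead a 95% interval read from the ranked values of the genes. It shows the spread between genes and treats them as independent. Differences between mice or between library preparations are in neither kind of interval. Levels are CPM, the UMIs of a gene per 1000000 UMIs of the cells summed. In tumour-like cells Smyd3 itself stood at 20.2 and 16.6 CPM, a ratio of 1.22 (0.729 to 2.03). A lower Smyd3 level was thus not detectable, and the libraries are called by their labels throughout. RNA of pancreatic acinar cells set the libraries apart: 12 acinar genes summed to 394 CPM in monocyte-macrophage-like cells under the knockdown label, with 12 of 12 detected, and 2 of 12 had any UMI under the WT label. The libraries shared 22 barcode sequences, of which 16 were kept in both.

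Cells were classed by marker genes, none of them among the 31 genes. Apoe, which is in the list of efflux genes read below, is a marker of the monocyte-macrophage gate. There were 5975 and 6003 monocyte-macrophage-like cells, 1923 and 1132 neutrophil-like, 260 and 350 dendritic-cell-like, 92 and 124 T-cell-like and 62 and 121 tumour-like cells. By the gating rule the classes differ in their gate genes, among them S100a9 and Krt8. Levels of these genes describe the classes and do not test them. S100a9 stood at 26187 and 21824 CPM in neutrophil-like and 14.2 and 9.44 CPM in monocyte-macrophage-like cells. Krt8, a keratin gene, stood at 1154 and 1073 CPM in tumour-like cells, where Ptprc, which encodes CD45, was at 6.28 and 11.5 CPM against 331 and 360.3 CPM in monocyte-macrophage-like cells. The cluster whose most frequent gated class was tumour-like was led by Cryab, Krt8 and Emp2 of the tumour list. Its leading genes also held the collagen genes Col1a1, Col1a2 and Col3a1 and Sparc and Cald1. The 6-gene fibroblast list, with those collagens, summed to 2.09 and 5.52 CPM in the gated tumour-like cells, a class that by its rule leaves out cells above that list's cut-off.

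Promoter sequences were taken first, since most of the synthesis genes are known SREBP2 targets. The RefSeq table of assembly GRCm38.p6 held 26 of the 31 genes; Fdps, Fdft1, Sqle, Stard4 and Npc1 were not in it. The 250 bases before the start were searched on both strands for a sterol regulatory element spelled TCACNCCAC, for the CCAAT box bound by NF-Y, a partner of SREBP2, and for the GC box GGGCGG bound by Sp1-type factors. A CCAAT box was present in 22 of 26 (84.6%), against 40.2% of 6318 genes past the filter on low values in monocyte-macrophage-like cells. A GC box was present in 22 of 26, against 66.2%, and TCACNCCAC in 1 of 26, against 1.28%. The 4 promoters below were chosen after their matches and levels were seen. Hmgcs1 has the TCACNCCAC match, 137 bases before the start, Mvk has the most CCAAT boxes (5), Nsdhl has 2, and Soat1, the storage gene that was lower under the knockdown label, has 1. They read 5′ to 3′ on the gene's strand with TCACNCCAC and CCAAT matches in capitals, ATTGG being CCAAT on the other strand. The Soat1 stretch is 247 bases, because the last 3 of its window lie within the annotated gene and are not printed.
Hmgcs1 promoter, chr13:119690101-119690350, + strand: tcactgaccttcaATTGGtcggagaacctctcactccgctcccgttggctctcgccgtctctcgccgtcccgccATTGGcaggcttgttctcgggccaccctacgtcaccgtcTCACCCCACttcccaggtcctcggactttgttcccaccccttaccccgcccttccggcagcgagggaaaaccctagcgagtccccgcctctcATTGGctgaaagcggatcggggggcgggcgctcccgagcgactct
Mvk promoter, chr5:114444019-114444268, + strand: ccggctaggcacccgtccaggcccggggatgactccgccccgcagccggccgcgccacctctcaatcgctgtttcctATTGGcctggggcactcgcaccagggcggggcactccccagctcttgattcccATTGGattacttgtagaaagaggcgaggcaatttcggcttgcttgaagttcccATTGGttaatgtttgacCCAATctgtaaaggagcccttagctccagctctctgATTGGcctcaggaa
Nsdhl promoter, chrX:72918271-72918520, + strand: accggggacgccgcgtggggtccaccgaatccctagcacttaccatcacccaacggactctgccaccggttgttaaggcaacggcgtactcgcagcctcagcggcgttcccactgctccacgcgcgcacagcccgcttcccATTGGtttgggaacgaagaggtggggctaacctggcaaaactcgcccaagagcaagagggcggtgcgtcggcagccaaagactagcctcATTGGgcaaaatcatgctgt
Soat1 promoter, chr1:156474332-156474578, − strand: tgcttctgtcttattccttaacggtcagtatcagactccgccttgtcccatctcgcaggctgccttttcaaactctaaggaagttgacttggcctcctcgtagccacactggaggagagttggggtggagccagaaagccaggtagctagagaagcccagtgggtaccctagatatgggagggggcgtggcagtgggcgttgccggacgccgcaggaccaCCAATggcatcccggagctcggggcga
The 4 genes without a CCAAT match were Acat2, Mbtps1, Mbtps2 and Scap. A match describes letters and not a binding site.

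Tumour-like cells held the highest summed level of the 20 enzyme genes, at 2006 CPM (1933 to 2080) and 1480 CPM (1431 to 1530). Dendritic-cell-like cells had 815 CPM (782 to 849) and 789 CPM (763 to 817), and monocyte-macrophage-like cells 806 CPM (799 to 812) and 634 CPM (628 to 639.7). These last 2 classes overlapped under the knockdown label and not under the WT label. T-cell-like cells had 518 CPM (442 to 603) and 601 CPM (527 to 683) and neutrophil-like cells 461 CPM (438 to 485) and 499 CPM (467 to 533), and these overlapped each other in both libraries.

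In tumour-like cells, 19 of 30 genes past the filter were higher than in monocyte-macrophage-like cells, with the interval above 1 in both libraries, and 4 were lower. The filter asks for at least 20 UMIs and 10 CPM in either class. Over all genes 49.7% were higher and 22.9% lower. Fdps, the farnesyl diphosphate synthase, stood at 408 against 51.6 CPM under the knockdown label and 270.0 against 31.9 CPM under the WT label, a ratio of 7.91 (7.24 to 8.63) and 8.45 (7.73 to 9.23). Lss, which closes the sterol rings, had ratios of 7.18 (5.26 to 9.61) and 8.65 (6.60 to 11.2), and Acat2, the cytosolic thiolase at the start of the pathway, 6.17 (5.002 to 7.55) and 6.41 (5.28 to 7.74). The 4 lower genes were the kinase gene Pmvk and the transport and storage genes Npc1, Npc2 and Soat1.

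In neutrophil-like cells most of the pathway was lower than in monocyte-macrophage-like cells, as were most of all genes, while Lbr and Soat1 were higher. Of 28 genes past the filter, 21 were lower than in monocyte-macrophage-like cells in both libraries and 2 higher, against 60.8% and 21.7% of all genes. Lbr encodes the lamin B receptor, a sterol reductase of the inner nuclear membrane known for its part in the lobed shape of the neutrophil nucleus. It stood at 195 against 52.4 CPM under the knockdown label and 214 against 59.3 CPM under the WT label, a ratio of 3.72 (3.42 to 4.05) and 3.62 (3.25 to 4.01). Soat1 stood at 282 against 197 CPM under the knockdown label and 304 against 242 CPM under the WT label, a ratio of 1.43 (1.34 to 1.53) and 1.26 (1.15 to 1.37). Without Lbr, the other 19 enzyme genes summed to 266 CPM (249 to 284) and 285 CPM (261 to 310.4) in neutrophil-like cells.

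Free RNA bears on the low values. C1qa, C1qb and C1qc, complement genes of macrophages, were read in neutrophil-like cells at 0.126 (0.122 to 0.130) and 0.168 (0.161 to 0.174) of their monocyte-macrophage-like level. Median depths were 1379 and 1314 UMIs per neutrophil-like cell and 11555 and 11144 per monocyte-macrophage-like cell. The intervals of the mevalonate kinase gene Mvk, at 0.179 (0.0769 to 0.353) and 0.0469 (0.00119 to 0.262), and of the terminal reductase gene Dhcr7, at 0.163 (0.0782 to 0.302) and 0.224 (0.0822 to 0.490), include the complement gene ratios. Hmgcs1, the HMG-CoA synthase, stood at 0.226 (0.179 to 0.282) and 0.309 (0.228 to 0.411), above those ratios. The part of free RNA in any of these values was not tested.

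Dendritic-cell-like cells had more RNA of the control genes Srebf2 and Scap, while no other control gene was higher in both libraries. Of 28 genes past the filter, 7 were higher than in monocyte-macrophage-like cells in both libraries and 6 lower, against 24.8% and 28.5% of all genes. The share of higher genes was thus near that of all genes. Srebf2 stood at 129 against 53.0 CPM under the knockdown label and 94.8 against 45.9 CPM under the WT label, a ratio of 2.44 (2.18 to 2.72) and 2.07 (1.86 to 2.29). Scap had ratios of 1.88 (1.35 to 2.54) and 2.05 (1.59 to 2.62), and Idi1, the isomerase that feeds farnesyl diphosphate synthesis, 1.504 (1.33 to 1.70) and 1.84 (1.63 to 2.07). Among the other control genes, Insig1 was at 0.837 (0.712 to 0.977) and 1.06 (0.928 to 1.21). Insig2 was at 0.749 (0.587 to 0.943) and 0.901 (0.754 to 1.07). Mbtps1 was at 1.10 (0.895 to 1.34) and 1.20 (1.02 to 1.40), and Mbtps2 at 0.988 (0.708 to 1.34) and 0.879 (0.656 to 1.16). The lysosomal export genes were lower, Npc1 at 0.368 (0.287 to 0.464) and 0.440 (0.368 to 0.522) and Npc2 at 0.520 (0.497 to 0.545) and 0.575 (0.554 to 0.596).

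**Figure D1:**
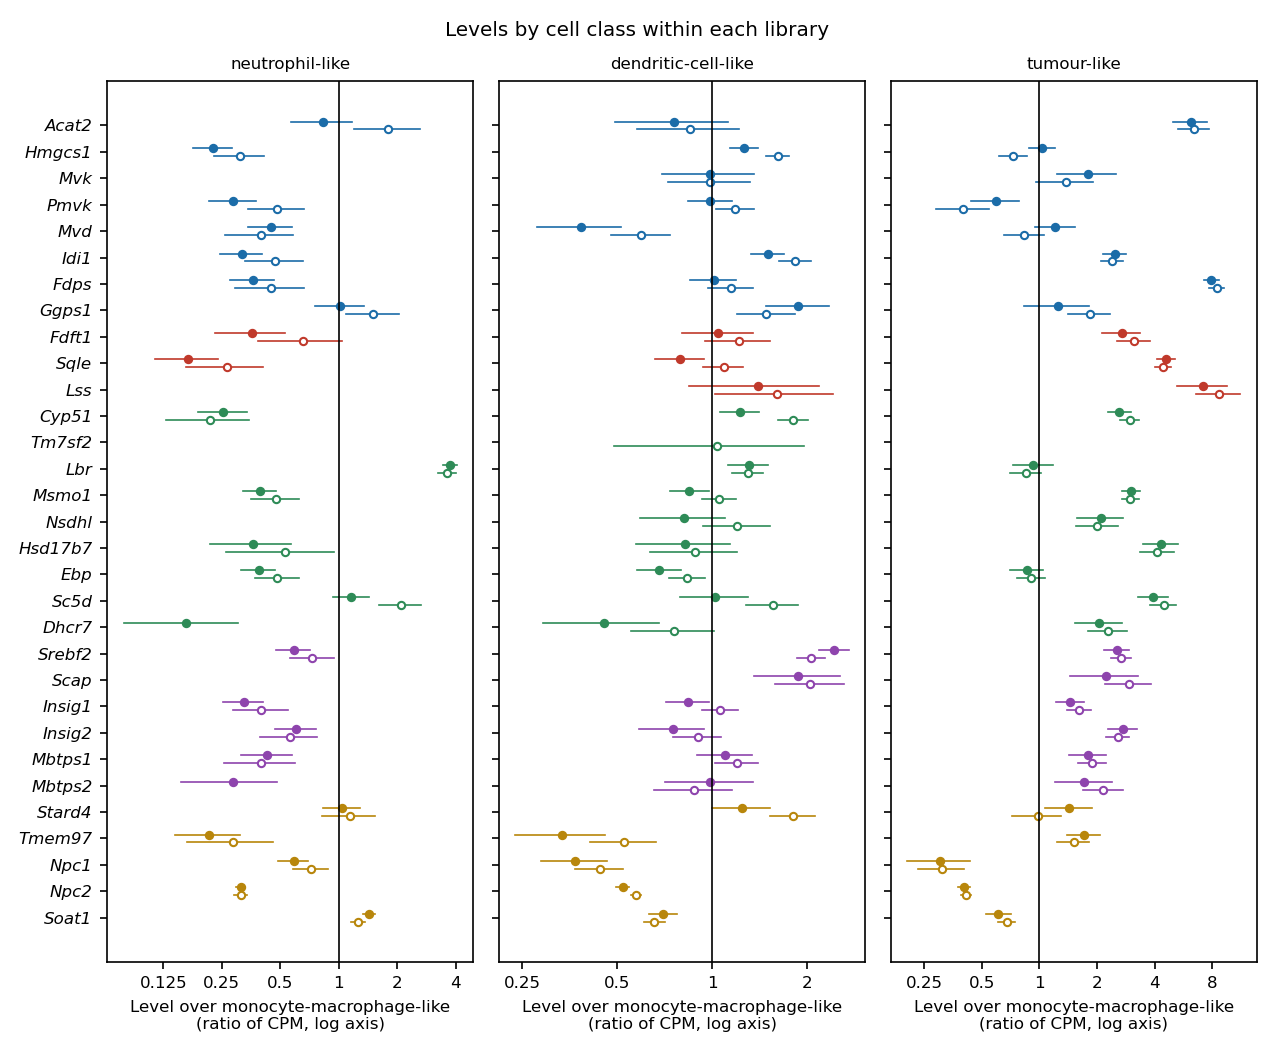
Level of each gene in other cell classes over its level in monocyte-macrophage-like cells of the same library (ratio of CPM, log axis), filled points for the knockdown label and open points for the WT label, bars for 95% counting intervals, colours for the roles named in the plot of levels in monocyte-macrophage-like cells, and values under 10 UMIs left out. Lbr and Soat1 lie above 1 in neutrophil-like cells, where most enzymes lie below it, and most enzymes lie above 1 in tumour-like cells.

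Between the libraries, most synthesis genes were higher in monocyte-macrophage-like cells under the knockdown label, by a modest factor. Of the 31 genes 28 passed the filter, and the ratio of knockdown label to WT label was above 1 for 22 and below 1 for 6, while 45.1% of all 7902 genes were above 1. The interval lay above 1 for 20 and below 1 for 3, against 27.3% and 34.5% of all genes. Fdps and Idi1 were at least 1.5-fold higher, against 0.38% of all genes, and 0 were 1.5-fold lower, against 1.14%. The median difference, on the scale of log2 (CPM + 5), was 0.29 (0.15 to 0.32) over the members and −0.01 over all genes.

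**Figure D2:**
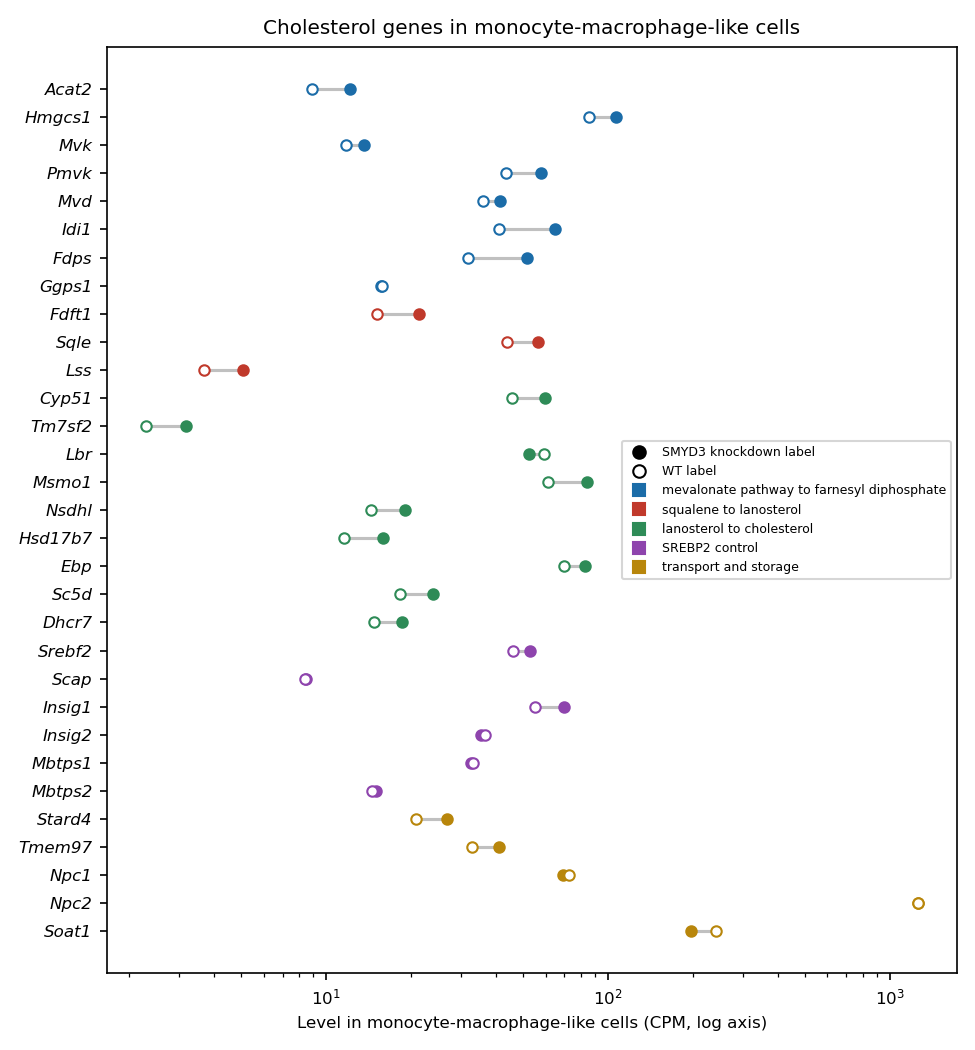
Level of each of the 31 genes in monocyte-macrophage-like cells (CPM, log axis), filled for the knockdown label and open for the WT label, coloured by role. Filled points lie to the right for most enzymes and to the left for Lbr, Npc1 and Soat1.

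Idi1 and Fdps, which make farnesyl diphosphate, the branch point for sterols and prenyl groups, had the highest ratios. Idi1 (ENSMUSG00000058258, chr13:8885501-8892451, + strand) stood at 64.6 and 40.9 CPM, a ratio of 1.58 (1.51 to 1.66). Fdps (ENSMUSG00000059743, chr3:89093588-89101959, − strand) stood at 51.6 and 31.9 CPM, a ratio of 1.61 (1.53 to 1.70). Of all 7902 genes, 21 had a higher log2 difference than Fdps and 24 than Idi1. Hmgcs1 (ENSMUSG00000093930, chr13:119690379-119708260, + strand) stood at 107 and 85.5 CPM, a ratio of 1.25 (1.21 to 1.29). Acat2 had a ratio of 1.36 (1.23 to 1.51) at 12.1 and 8.87 CPM, and the kinase gene Pmvk 1.32 (1.26 to 1.39) at 57.6 and 43.5 CPM. Mvk at 1.16 (1.06 to 1.27) and the decarboxylase gene Mvd at 1.15 (1.09 to 1.21) were nearer to 1. Ggps1, which diverts farnesyl diphosphate to protein prenylation, stood at 15.6 and 15.7 CPM, a ratio of 0.990 (0.911 to 1.08) that includes 1.

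The later enzymes differed by similar factors. Fdft1, the squalene synthase, stood at 21.3 and 15.2 CPM, a ratio of 1.40 (1.29 to 1.51). Sqle, the squalene epoxidase, stood at 56.2 and 43.7 CPM, a ratio of 1.29 (1.23 to 1.35). Lss did not pass the filter, with 370 and 261 UMIs. After lanosterol, the ratio was 1.31 (1.25 to 1.37) for the demethylase gene Cyp51 and 1.37 (1.32 to 1.42) for the methylsterol oxidase gene Msmo1. It was 1.33 (1.22 to 1.44) for Nsdhl and 1.38 (1.26 to 1.52) for Hsd17b7, which complete the removal of methyl groups. It was 1.19 (1.15 to 1.24) for the isomerase gene Ebp, 1.31 (1.22 to 1.41) for the desaturase gene Sc5d and 1.27 (1.17 to 1.37) for Dhcr7. Lbr was the exception, at 52.4 and 59.3 CPM and a ratio of 0.885 (0.847 to 0.925), and Tm7sf2, which encodes the other reductase of that step, did not pass the filter with 232 and 162 UMIs.

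The control genes did not share 1 pattern. Insig1, itself a known SREBP2 target, stood at 69.6 and 55.1 CPM, a ratio of 1.26 (1.21 to 1.32). Srebf2 stood at 53.0 and 45.9 CPM, a ratio of 1.15 (1.10 to 1.21). The intervals of Insig2 at 0.969 (0.917 to 1.02), Mbtps1 at 0.988 (0.933 to 1.05) and Mbtps2 at 1.03 (0.948 to 1.13) include 1. Scap did not pass the filter, with 620 and 596 UMIs.

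Among the transport genes, the storage gene stood opposite to the enzymes. Soat1 (ENSMUSG00000026600, chr1:156424525-156474331, − strand) stood at 197 and 242 CPM, a ratio of 0.816 (0.798 to 0.835), the lowest of the 28. Npc1 had a ratio of 0.953 (0.917 to 0.991), and Npc2, at 1262 and 1256 CPM, one of 1.01 (0.996 to 1.01). Stard4, a cytosolic sterol carrier, had a ratio of 1.28 (1.20 to 1.38), and Tmem97, a membrane protein that binds Npc1, 1.25 (1.19 to 1.32). Acinar RNA differed between the same libraries, and its part in these ratios was not tested. In cells without a UMI of the acinar list, 469 of 5975 and 6000 of 6003, the median difference of members was 0.21 and the Stard4 ratio 0.996.

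**Figure D3:**
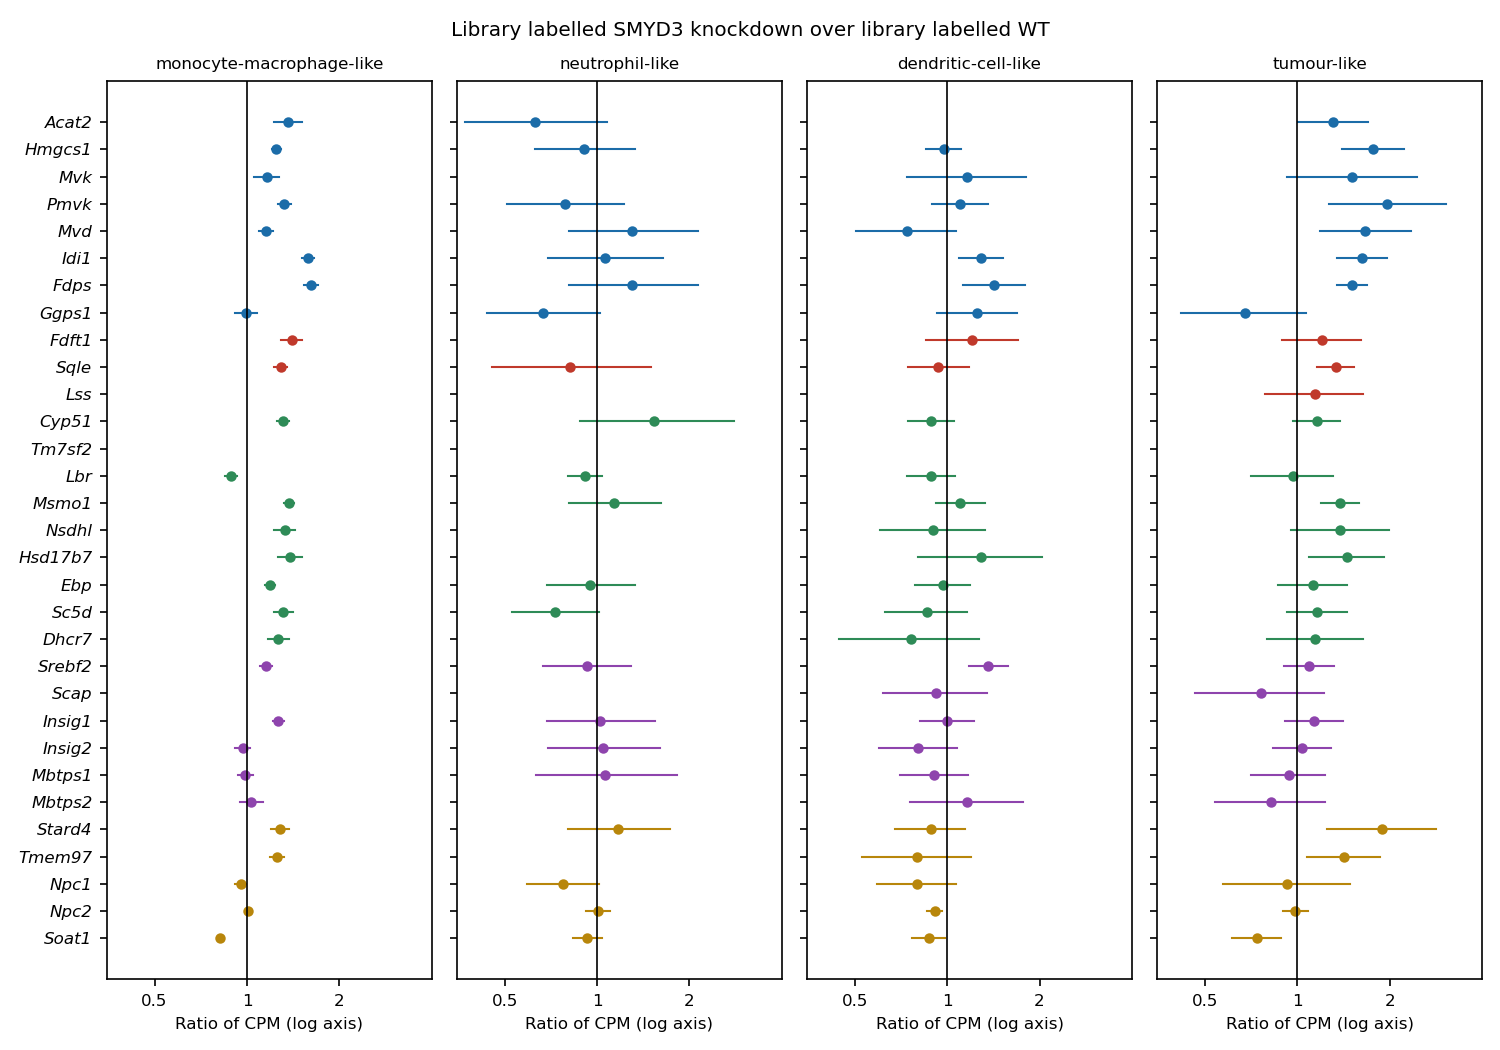
Ratio of CPM, knockdown label over WT label, for each gene past the filter in the cell classes compared (log axis, bars 95% counting intervals, line at 1, colours for roles). In monocyte-macrophage-like cells 20 intervals lie above 1 and 3 below, and in neutrophil-like cells every interval includes 1.

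The difference also showed in the quartiles of single cells. The summed enzyme level per monocyte-macrophage-like cell had quartiles of 3.03, 5.59 and 10.5 UMIs per 10000 under the knockdown label and 2.37, 4.39 and 7.62 under the WT label. Of the knockdown-label cells, 37.0% (2209 of 5975, 35.7 to 38.2%) lay above the WT-label upper quartile. A UMI of Idi1 was seen in 36.4% and 26.4% of cells. When each cell was thinned to 1000 UMIs, which left out 201 and 199 shallower cells, it was seen in 5.73% (5.15 to 6.36) and 3.20% (2.77 to 3.69). The thinned share was 4.31% (3.80 to 4.87) and 2.83% (2.41 to 3.28) for Fdps and 19.6% (18.6 to 20.7) and 21.3% (20.2 to 22.4) for Soat1, in the same order as their CPM.

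Related gene lists were read in the same cells, where 45.1% of all genes were above 1, and their difference from the cholesterol genes was not tested. Of 16 genes of SREBP1 and fatty acid synthesis, 12 passed the filter and 10 of those were above 1, with a median log2 difference of 0.18. Of 14 genes of oxysterols, LXR and efflux, 10 passed the filter and 5 of those were above 1, with a median log2 difference of −0.07. These lists hold the sister pathway of SREBP2 and the route by which macrophages shed cholesterol. Of 14 genes that use isoprenoids, 10 passed the filter and 8 of those were above 1, with a median log2 difference of 0.07. Of 14 genes of uptake and lysosomal handling, 12 passed the filter and 6 of those were above 1, with a median log2 difference of −0.02. Of 16 genes of dissociation and heat stress, 16 passed the filter and 1 of those was above 1, with a median log2 difference of −0.19, and of 17 genes of hypoxia and glycolysis, 17 passed the filter and 10 of those were above 1, with a median log2 difference of 0.10. The part of stress or hypoxia in the cholesterol result was not tested.

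Monocyte-macrophage-like cells were split into 9 states by other genes, and 801 and 698 cells fell in no state. The cells in no state had a summed enzyme level of 868 and 618 CPM and are left out of the values by state. A state is a range of marker levels and not a cell type: 1348 of 10479 gated cells scored between the cut-off of 1 SD above the mean and 1.25 SD. Cells high in Ly6c2 and Plac8, genes of classical monocytes, had the highest summed enzyme level, 1134 CPM (1108 to 1162) and 944 CPM (916 to 973), and cells high in MHC class II genes had 1126 CPM (1103 to 1148) and 911 CPM (892 to 931). The intervals of these 2 overlapped in each library. Cycling cells had 888 CPM (872 to 905) and 732 CPM (717 to 748). Cells high in Mmp12 and Gpnmb, genes of matrix-degrading and lipid-laden macrophages, had 426 CPM (409.5 to 443) and 456 CPM (440.3 to 472), the lowest level under the knockdown label. Under the WT label they overlapped Lyve1-Cd163 cells, which had 597 CPM (579.9 to 615) and 449 CPM (437 to 463).

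**Figure D4:**
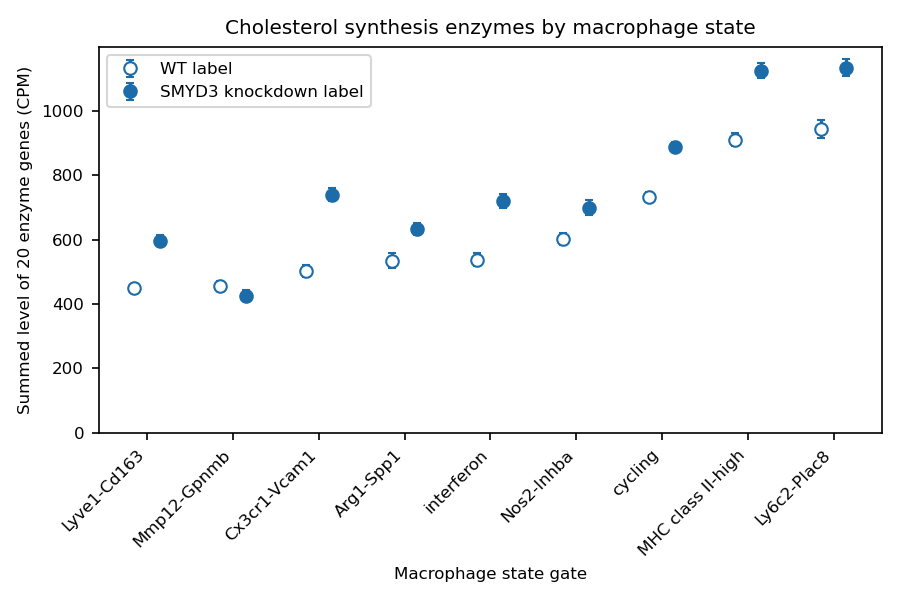
Summed level of the 20 enzyme genes (CPM) in each macrophage state, filled for the knockdown label and open for the WT label, with 95% counting intervals. The MHC class II-high and Ly6c2-Plac8 states are highest in both libraries, and Mmp12-Gpnmb is the state whose knockdown-label point lies below its WT-label point in these sums, though not in the thinned mean (0.438 and 0.384 UMIs per cell).

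In Ly6c2-Plac8 cells, 18 of 28 genes past the filter were higher than in all other monocyte-macrophage-like cells in both libraries and 2 lower, against 27.2% and 20.9% of all genes. In MHC class II-high cells 16 of 28 were higher and 4 lower, against 25.5% and 25.7%. Cyp51 in MHC class II-high cells stood at 112 against 53.1 CPM under the knockdown label and 95.5 against 38.3 CPM under the WT label, a ratio of 2.10 (1.95 to 2.26) and 2.49 (2.30 to 2.69). The lysosomal genes stood on the other side of 1 there, Npc1 at 0.601 (0.539 to 0.667) and 0.529 (0.475 to 0.588) and Npc2 at 0.750 (0.733 to 0.767) and 0.708 (0.692 to 0.724). In Lyve1-Cd163 cells 2 of 28 were higher, Npc1 and Npc2, and 14 lower, against 28% and 32.1%.

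In Mmp12-Gpnmb cells the numbers of higher and lower genes were near the all-gene shares, and the 4 higher genes were Soat1, Npc1, Npc2 and Insig2. Of 27 genes past the filter, 14 were lower than in the other cells in both libraries, among them 9 of 17 enzymes and the transport genes Stard4 and Tmem97, and 4 were higher, against 44.1% and 13.7% of all genes. Soat1 stood at 334 against 185 CPM under the knockdown label and 375 against 227 CPM under the WT label, a ratio of 1.80 (1.72 to 1.89) and 1.65 (1.58 to 1.72). Npc1 had ratios of 1.49 (1.36 to 1.62) and 1.41 (1.30 to 1.53). The 2 Insig genes parted: Insig2 was higher, at 1.42 (1.25 to 1.61) and 1.38 (1.22 to 1.54), and Insig1 lower, at 0.449 (0.387 to 0.519) and 0.658 (0.578 to 0.746). Idi1 was at 0.307 (0.254 to 0.367) and 0.601 (0.514 to 0.700).

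In cycling cells, 5 of 28 genes past the filter were higher in both libraries (Lbr, Acat2, Ebp, Sqle and Tmem97) and 4 lower, against 33.8% and 21.4% of all genes. Lbr stood at 123 against 38.2 CPM under the knockdown label and 134 against 44.7 CPM under the WT label, a ratio of 3.21 (3.002 to 3.42) and 2.99 (2.81 to 3.19). In monocyte-macrophage-like cells without the cycling gate, the Lbr ratio between libraries was 0.856.

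In 8 of the 9 states the summed enzyme level was higher under the knockdown label. The ratio was 1.47 (1.41 to 1.54) in Cx3cr1-Vcam1 cells, 1.34 (1.28 to 1.41) in interferon-response cells and 1.33 (1.27 to 1.38) in Lyve1-Cd163 cells. It was 1.24 (1.20 to 1.27) in MHC class II-high cells, 1.20 (1.16 to 1.25) in Ly6c2-Plac8 cells, 1.18 (1.12 to 1.25) in Arg1-Spp1 cells and 1.16 (1.11 to 1.22) in Nos2-Inhba cells. In cycling cells it was 1.21 (1.18 to 1.25), although after thinning to 1000 UMIs the mean was 0.813 and 0.813 enzyme UMIs per cell. In Mmp12-Gpnmb cells it was 0.934 (0.886 to 0.985), and the mean per cell 4.17 and 4.26 per 10000 UMIs. The direction turned in 2 other measures: the thinned mean was 0.438 and 0.384 enzyme UMIs, and the median per cell 3.01 and 2.84 per 10000 UMIs. The median difference of members ran from −0.12 (−0.24 to 0.01) in Mmp12-Gpnmb to 0.36 (0.04 to 0.57) in Cx3cr1-Vcam1 cells, and that of all genes from −0.06 to 0.03.

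The number of genes at least 1.5-fold higher varied among the states. It was 10 in Cx3cr1-Vcam1 cells, against 2.49% of all genes, 7 in Lyve1-Cd163 cells, against 1.41%, and 7 in interferon-response cells, against 2.48%. It was 4 in MHC class II-high cells, against 1.61%, 3 in Arg1-Spp1 cells, against 2.18%, and 2 in Ly6c2-Plac8 cells, against 2.36%. It was 2 in cycling cells, against 0.715%, and 1 in Nos2-Inhba cells, against 1.59%. In Cx3cr1-Vcam1 cells 0 members were 1.5-fold lower, against 2.77% of all genes. Fdft1 had their highest ratio, 2.22 (1.57 to 3.17) at 18.4 and 8.29 CPM. Idi1 stood at 57.7 and 27.6 CPM, a ratio of 2.09 (1.73 to 2.53), and Sqle at 40.7 and 20.2 CPM, a ratio of 2.02 (1.61 to 2.53).

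In Mmp12-Gpnmb cells the counts lay near the all-gene shares. Of 26 genes past the filter 9 were above 1, against 37.2% of all genes. The interval lay above 1 for 1, against 8.55%, and below 1 for 5, against 19.6%. At 1.5-fold, 1 was higher, against 1.1%, and 2 were lower, against 3.59%. Mvk was the higher one, at 13.3 and 8.62 CPM and a ratio of 1.54 (1.09 to 2.20), while Idi1 stood at 20.97 and 25.6 CPM, a ratio of 0.820 (0.646 to 1.04). The sign of the median turned under 2 other settings: it was 0.01 with a filter of 100 UMIs and 50 CPM and 0.01 with states taken from clusters.

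Of the 26 genes past the filter in every state, Sqle and Ebp were above 1 in all 9 and Lbr and Soat1 below 1 in all 9. The share of all genes with 1 direction in all 9 states was not counted. Soat1 ranged from 0.763 to 0.913, with the interval below 1 in 9 states, and Lbr from 0.644 to 0.916, with 5. Outside Mmp12-Gpnmb cells, Idi1 lay between 1.30 and 2.09.

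**Figure D5:**
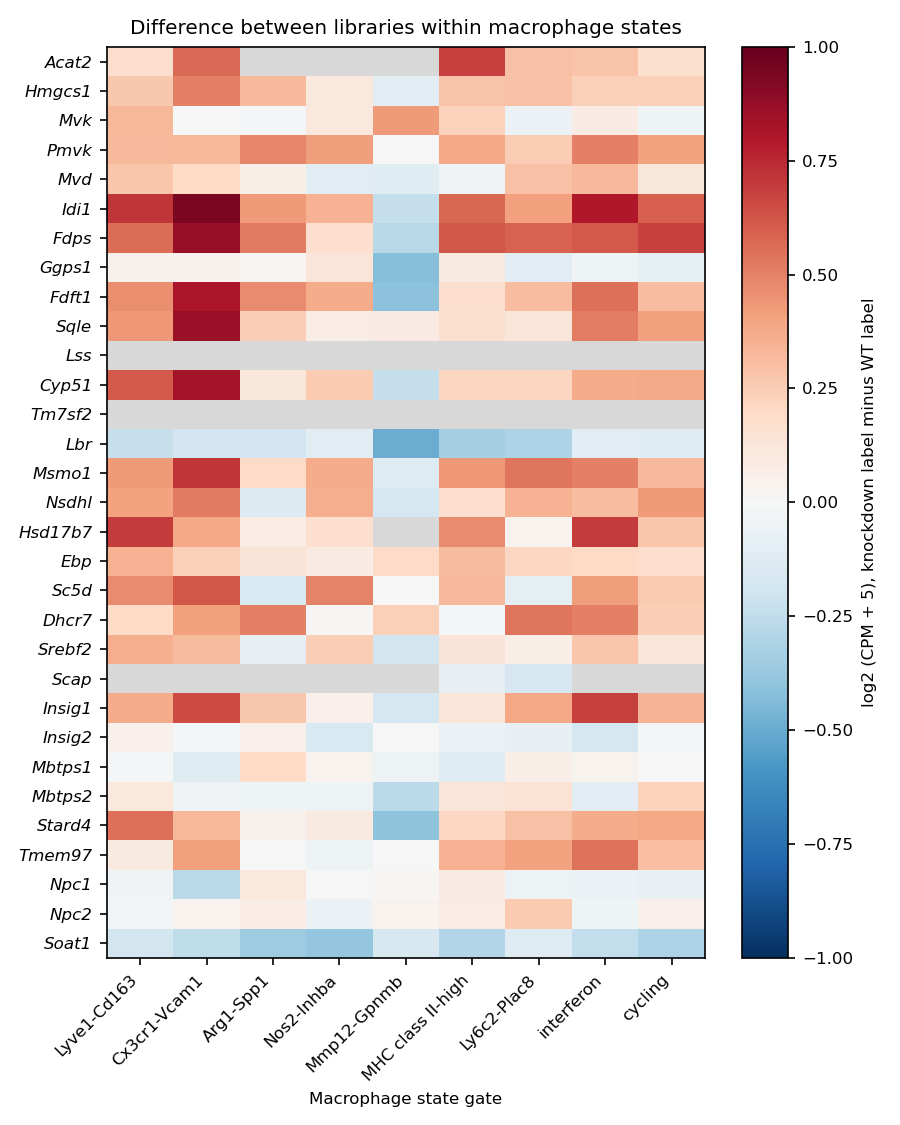
Difference of each gene between libraries in each macrophage state, as log2 (CPM + 5), knockdown label minus WT label (red higher, blue lower, grey not past the filter). Idi1 and Fdps are red in 8 states, and Soat1 and Lbr are blue in all 9.

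In neutrophil-like cells no difference between libraries was detectable at this depth for a single gene. Of 21 genes past the filter 10 were above 1, against 43.6% of all genes, and 0 intervals lay above 1 and 0 below, against 7.17% and 13.5%. At 1.5-fold, 1 was higher (Cyp51, 15.2 and 9.92 CPM, ratio 1.54 (0.881 to 2.80)) and 1 lower (Acat2, 10.1 and 16.0 CPM, ratio 0.629 (0.370 to 1.07)), against 4.54% and 6.84% of all genes. The summed enzyme ratio was 0.924 (0.851 to 1.005), against 1.27 (1.26 to 1.29) in monocyte-macrophage-like cells. Acinar RNA summed to 2276 CPM in neutrophil-like cells under the knockdown label, and its part was not tested.

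Dendritic-cell-like cells differed between libraries at few genes. Of 28 past the filter 10 were above 1, against 41.7% of all genes, and the median difference was −0.09 (−0.16 to 0.13). Its sign turned in the cells without a UMI of the acinar list, where it was 0.26. The number of these cells is not given, and their depth was not compared between libraries. The interval lay above 1 for Srebf2 at 1.36 (1.18 to 1.57), Fdps at 1.43 (1.13 to 1.80) and Idi1 at 1.29 (1.09 to 1.52), 3 of 28 against 7.59% of all genes. It lay below 1 for Npc2 at 0.910 (0.858 to 0.964) and Soat1 at 0.870 (0.766 to 0.987), 2 of 28 against 14.5%. At 1.5-fold 0 were higher and 0 lower, against 2.28% and 5.78%. These counts were 5 higher and 2 lower without acinar UMIs and 2 higher and 1 lower after thinning to 1000 UMIs. The summed enzyme ratio was 1.03 (0.979 to 1.09).

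Tumour-like cells were few, 62 under the knockdown label, below the 100 cells per library asked of the other classes compared. No count of genes and no all-gene share is given for them between libraries. Their median depths were 19466 and 7901 UMIs, and the summed enzyme ratio in them was 1.36 (1.29 to 1.42). In the 45 and 64 of them with at least 5000 UMIs it was 1.35 (1.28 to 1.41). Hmgcs1 stood at 110.2 and 62.4 CPM, a ratio of 1.77 (1.40 to 2.23), Idi1 at 159.7 and 98.1 CPM, a ratio of 1.63 (1.35 to 1.96), and Fdps at 408 and 270.0 CPM, a ratio of 1.51 (1.35 to 1.69). Srebf2 had a ratio of 1.09 (0.907 to 1.32) and Soat1, at 121 and 163 CPM, one of 0.740 (0.615 to 0.888). Idi1 and Fdps lay above 1 and Soat1 below 1, with the interval clear of 1, in 3 classes (tumour-like, monocyte-macrophage-like and dendritic-cell-like). In neutrophil-like cells the intervals of these genes included 1. In T-cell-like cells Soat1 had a ratio of 1.22 (0.664 to 2.24), and Idi1 and Fdps did not pass the filter. How many of all genes share a direction across the 3 classes was not counted.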

How the data were processed

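Droplet single-cell RNA-seq of RENCA tumours, 1 library per label, was compared. The deposited values are raw UMI counts per gene and barcode in 1 matrix of both libraries, made by the authors with Cell Ranger 7.1.0, per the file headers. The submitters' processing notes name the build mm10. Barcodes were assigned to libraries by their sequences through the deposited barcode table.

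Cells with at least 200 genes, 500 UMIs and at most 20% mitochondrial UMIs were kept, and 723 and 603 cells with the highest Scrublet scores were removed, at 0.8% per 1000 cells, because the caller's own threshold marked 0 and 0. Classes were set by summed marker UMIs per 10000, with cut-offs chosen after marker levels, not levels of the cholesterol genes, were seen, and macrophage states by a marker score at least 1 SD above the mean. UMIs were summed per class and library, scaled to CPM and compared as ratios with Clopper-Pearson intervals of the conditional binomial, and sums with exact Poisson intervals. Genes needed 20 UMIs and 10 CPM in either library. The log2 scale adds 5 CPM, and intervals of median differences are exact binomial order-statistic intervals over the genes. Gene positions are from GENCODE vM21 (GRCm38), in which 52081 of 55357 gene IDs were found.

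All 31 genes are named by rule, and ratios are given for those past the filter. The genes, lists and states were chosen with earlier results of these data known. Python 3.11.15, numpy 2.4.6, scipy 1.17.1, pandas 2.3.3 and scanpy 1.11.5 were used. The 13 other settings are given at the end.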

Additional observations from a re-analysis of the deposited data

Results flagged for a closer look

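The median log2 difference between libraries, knockdown label minus WT label, had the opposite sign in 3 groups of cells to that in their comparators, and none of these differences was tested. In Mmp12-Gpnmb cells the median over cholesterol genes was −0.1234, while the other 8 macrophage states had medians above 0 as reported. In neutrophil-like cells it was −0.06203 and in dendritic-cell-like cells −0.08877, against 0.29 in monocyte-macrophage-like cells. The intervals reported above for the Mmp12-Gpnmb and dendritic-cell-like medians include 0, and none is given for the neutrophil-like median. Median-ratio scaling over genes gave log2 shifts of the same sign: −0.06943 for Mmp12-Gpnmb, −0.05249 for dendritic-cell-like and −0.04973 for neutrophil-like cells. For monocyte-macrophage-like cells that shift was −0.01725. Its part in the medians was not tested. The sign of the median turned in Mmp12-Gpnmb cells with the stricter filter and with clusters, in neutrophil-like cells after thinning, and in dendritic-cell-like cells without acinar UMIs. It also turned in Arg1-Spp1 cells, from 0.08 to −0.04 without acinar UMIs.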

How the results depend on the processing

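No paired analysis was possible because each label has 1 library. Of 13 settings, those without the acinar UMIs and without shared barcodes were added after seeing the data. In monocyte-macrophage-like cells 19 of the 28 cholesterol genes stayed above 1 and 4 below 1 under every setting. All settings use the same 2 libraries, and the same count over all genes was not made. The count of genes at least 1.5-fold higher was 4 after thinning and 1 in cells without acinar UMIs, where the Stard4 ratio was 0.9956, and the median was 0.3177 with a pseudocount of 1 CPM. In neutrophil-like cells the higher count was 2 with equal weight per cell, 0 with the stricter filter, 3 with none, 0 without doublet removal, 0 at 10% mitochondrial UMIs, 2 by clusters and 2 without acinar UMIs. The lower count there was 0 (stricter), 4 (no filter), 2 (10% mitochondrial) and 6 (no acinar UMIs), where the median was −0.2829; it was 0.01852 after thinning. In dendritic-cell-like cells the higher count was 2 after thinning, 1 by clusters and 5 without acinar UMIs, the lower count 1 after thinning, 1 with no filter and 2 without acinar UMIs, and the median −0.1749 after thinning and 0.2641 without acinar UMIs. Thinned medians were 0.3279 in Arg1-Spp1, 0.4919 in Nos2-Inhba and 0.3938 in Ly6c2-Plac8 cells. Without acinar UMIs the median was −0.03522 in Arg1-Spp1 and −0.3484 in Mmp12-Gpnmb cells, where it was 0.01044 with the stricter filter and 0.01355 by clusters. The cause of these shifts was not tested. Clusters gave no value for Nos2-Inhba or cycling cells. The setting without acinar UMIs keeps 469 of 5975 knockdown-label and 6000 of 6003 WT-label monocyte-macrophage-like cells. It thus sets a small part of 1 library against nearly all of the other. The numbers it keeps in other classes are not given, and the depth of the cells kept was not compared. Depth limits the neutrophil-like class most, with medians of 1379 and 1314 UMIs per cell.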
